A study of Homo sapiens with 6 samples.

Results

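Metallothioneins are small intracellular proteins in which cysteines hold zinc, copper or cadmium. The 9 genes described here are MT2A and the 8 MT1 genes MT1A, MT1B, MT1E, MT1F, MT1G, MT1H, MT1M and MT1X, found by symbol among the 57905 Ensembl IDs of the expression table. All 9 lie within 76.0 kb of chromosome 16 and all 9 have a row. They were chosen by their FPKM in siASGR1 against siControl, several of them being far higher in siASGR1, so their values in that comparison are a description and carry no test.

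RNA was sequenced from 6 libraries of Huh7, a human hepatoma line. In 3 libraries, siASGR1, the cells had received an siRNA that targets ASGR1, the major subunit of the asialoglycoprotein receptor of hepatocytes. In the other 3, siControl, they had received a scrambled siRNA. All were harvested at 72 h, and 1 µg of total RNA entered each TruSeq library. No label says that the 3 libraries of a group are separate cultures, so every p below measures only the spread between these libraries, and that spread may be technical. In bulk RNA, more cells with a transcript and more transcript per cell cannot be told apart.

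In liver, metallothioneins buffer zinc and copper and take up cadmium. Their transcription is driven by the zinc-sensing factor MTF1, which binds short metal response elements in their promoters, and is also raised by glucocorticoids and by interleukin 6. MT3 and MT4, the remaining family members, are known mainly from brain and from stratified epithelium. When zinc enters a cell, MTF1 also raises SLC30A1, the exporter that pumps zinc out.

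The coding sequences are much alike, so some reads may be shared between copies. They are printed for MT2A, for its nearest relative MT1G, for MT1E, the highest MT1 gene after silencing, and for MT1B, which has an extra cysteine codon. Each is spliced from the GENCODE v29 transcript on GRCh38, and capitals mark the cysteine codons TGC and TGT.

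MT2A: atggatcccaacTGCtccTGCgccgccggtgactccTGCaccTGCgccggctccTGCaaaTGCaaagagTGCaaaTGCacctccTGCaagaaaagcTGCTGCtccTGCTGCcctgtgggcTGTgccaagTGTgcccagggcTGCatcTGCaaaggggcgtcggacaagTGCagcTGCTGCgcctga

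MT1G: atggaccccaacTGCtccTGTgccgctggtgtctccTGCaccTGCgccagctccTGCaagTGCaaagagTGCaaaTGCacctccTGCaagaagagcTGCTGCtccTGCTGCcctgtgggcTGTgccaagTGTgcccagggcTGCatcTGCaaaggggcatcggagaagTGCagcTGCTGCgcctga

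MT1E: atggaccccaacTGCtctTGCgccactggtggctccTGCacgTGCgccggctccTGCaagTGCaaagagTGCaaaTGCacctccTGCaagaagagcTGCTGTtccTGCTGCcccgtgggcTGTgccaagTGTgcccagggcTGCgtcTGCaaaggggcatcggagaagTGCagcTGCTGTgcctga

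MT1B: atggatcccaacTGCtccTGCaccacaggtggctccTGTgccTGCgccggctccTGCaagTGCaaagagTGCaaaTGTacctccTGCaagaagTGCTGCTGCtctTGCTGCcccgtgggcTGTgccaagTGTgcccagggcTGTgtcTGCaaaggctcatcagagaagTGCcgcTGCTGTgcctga

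Each of the 9 coding sequences has 186 bases including the stop codon, which is 61 codons before it. Cysteine codons number 20 in 8 of the 9 genes and 21 in MT1B. MT2A and MT1G are identical at 95.2% of coding positions and differ at 9. Identity ranged from 88.7% to 95.2% between MT2A and the 8 MT1 genes and from 88.7% to 94.6% among the 28 pairs of MT1 genes. The parts outside the coding sequence were not compared on their own. Of all 50-base windows of the whole transcript, the share found letter for letter in another metallothionein transcript was 4.88% for MT2A, 5.34% for MT1E, 3.59% for MT1F and 0 for MT1B. It was 16% for MT1X, 20.2% for MT1G and 20.4% for MT1H. How the authors' counter treated reads that match several copies is not given in the sources used here, so single values of MT1X, MT1G and MT1H are the least certain, and the sum over the copies is given as well.

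Promoter sequences were at hand for 4 of the 9 genes, MT2A, MT1B, MT1H and MT1X, in the RefSeq table on GRCh38.p14. None was at hand for MT1A, MT1E, MT1F, MT1G and MT1M. The 250 bases before the RefSeq start are printed on the plus strand, because they hold the motif that MTF1 reads. Capitals mark the core of the metal response element, TGCGCNC or TGCACNC, on either strand; no stretch can count under both forms.

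MT2A, chr16:56608334-56608583: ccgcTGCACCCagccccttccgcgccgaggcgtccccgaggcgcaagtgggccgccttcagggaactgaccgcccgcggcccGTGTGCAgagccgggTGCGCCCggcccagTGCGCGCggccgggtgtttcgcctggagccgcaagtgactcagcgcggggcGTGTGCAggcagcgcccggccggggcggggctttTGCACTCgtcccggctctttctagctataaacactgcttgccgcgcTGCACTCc

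MT1B, chr16:56651636-56651885: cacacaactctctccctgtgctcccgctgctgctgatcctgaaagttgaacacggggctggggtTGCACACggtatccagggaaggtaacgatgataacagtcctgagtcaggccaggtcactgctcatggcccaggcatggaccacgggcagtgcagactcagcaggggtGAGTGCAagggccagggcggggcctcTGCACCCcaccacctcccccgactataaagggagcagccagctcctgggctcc

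MT1H, chr16:56669564-56669813: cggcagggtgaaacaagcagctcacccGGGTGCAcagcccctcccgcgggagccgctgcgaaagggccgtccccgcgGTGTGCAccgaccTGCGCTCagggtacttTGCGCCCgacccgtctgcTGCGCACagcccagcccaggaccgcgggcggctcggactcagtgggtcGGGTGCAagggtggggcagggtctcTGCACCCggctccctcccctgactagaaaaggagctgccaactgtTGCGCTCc

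MT1X, chr16:56682220-56682469: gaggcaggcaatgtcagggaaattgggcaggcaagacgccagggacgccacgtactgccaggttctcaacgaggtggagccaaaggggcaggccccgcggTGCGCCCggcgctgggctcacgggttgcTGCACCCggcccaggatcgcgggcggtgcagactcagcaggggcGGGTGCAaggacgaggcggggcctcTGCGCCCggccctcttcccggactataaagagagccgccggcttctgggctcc

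MT1H held 8 core matches, MT2A 7, MT1X 4 and MT1B 3. Over 27305 genes of the same table, 28.5% held at least 1 match in these 250 bases, 1.94% held 3 or more and 0.458% held 4 or more. In these shares and those of other motifs below, a gene with several promoters counts by the promoter with the most matches. Each of the 4 metallothioneins has a single window. In MT2A the matches ran from position -246 to -8 before the start, and in MT1H from -223 to -8. In MT1X they ran from -150 to -53 and in MT1B from -186 to -53. The MT2A window lies downstream of the start of the wider GENCODE gene, and the end of the MT1X window lies within the GENCODE gene. The number of matches did not order the levels: MT1H, with the most, was at or near 0 in every library, as given below. Other motifs were sparser. The AP-1 motif TGANTCA occurred in MT2A and MT1B (8.06% of all genes), the antioxidant response core TGACNNNGC in MT2A, MT1B and MT1X (13.2%), and the STAT motif TTCNNNGAA in MT2A (8.09%). The glucocorticoid receptor motif ACANNNTGT, searched like the others on both strands, was in none of the 4 windows, against 5.64% of all genes. Bases farther upstream than 250 were not searched, so a site just outside a window would be missed. A match is a description of letters, not of binding.

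Levels are in FPKM, fragments scaled to exon length and library depth, as deposited. They rested on 18481000 to 19257000 fragments in siASGR1 libraries and 16326000 to 19334000 in siControl libraries, recovered from the steps between low values, and fragment counts below were rebuilt in the same way. FPKM was above 0 for 24609 to 25151 genes in siASGR1 and 26671 to 27300 in siControl. All 8 hepatocyte markers, ALB and AFP among them, were expressed in both groups, each with a mean of 27.1 FPKM or more. Their summed level was 7470 to 7766 FPKM in siASGR1 and 3959 to 4073 FPKM in siControl. In siASGR1 all 8 were called higher (limma adjusted p under 0.05), against 20.9% of all genes tested, and stayed so under each scaling tried. Their median log2 fold change was 1.07, against -0.13 over all genes tested. The labelled silencing was examined at ASGR1 itself. In the whole-series table it had 4.60, 4.82 and 4.71 FPKM in siASGR1, against 17.54, 17.56 and 16.90 FPKM in siControl (log2 fold change -1.68, SE 0.04, limma adjusted p = 1.75e-06). The files of the siASGR1 libraries gave 14.65, 15.81 and 14.04 FPKM instead (log2 fold change -0.21, SE 0.05, limma adjusted p = 0.00954). ASGR1 is the only gene whose values differ between the deposited tables, and which value is right cannot be told from them. The metallothionein values are the same in both.

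MT2A, the isoform that usually predominates in human tissues, had by far the highest level. It lies at chr16:56608199-56609497 on the plus strand of GRCh38 (ENSG00000125148). Its level was 52.59, 60.57 and 52.97 FPKM in siASGR1, against 3.82, 3.99 and 2.83 FPKM in siControl. Every siASGR1 library was far above every siControl library, with no overlap. These values rested on 1278, 1454 and 1325 fragments in siASGR1 and on 96, 87 and 60 in siControl. The means were 55.4 ± 4.5 FPKM in siASGR1 and 3.55 ± 0.63 FPKM in siControl (SD, n = 3 each), a ratio of 15.6, and the ratio of fragment rates had a 95% counting interval of 13.6 to 17.7. By level, MT2A ranked 796, 694 and 795 among all genes in siASGR1, against 8786, 8586 and 9989 in siControl.

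**Figure D1:**
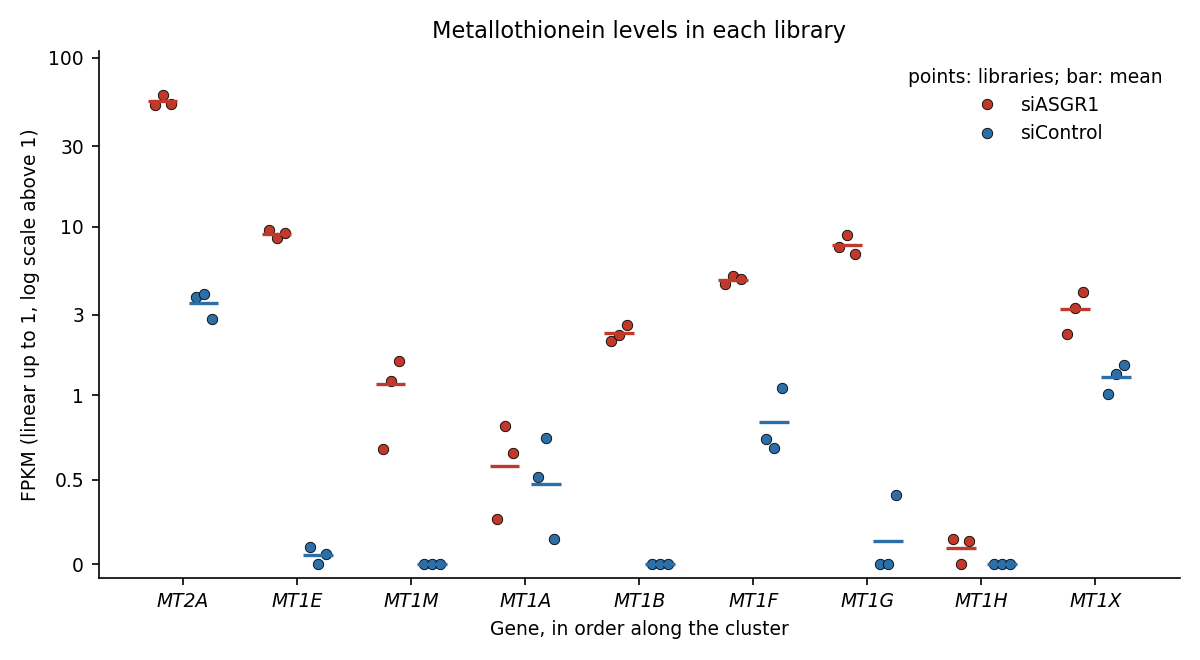
FPKM of the 9 metallothioneins in each library (vertical axis, linear up to 1 and logarithmic above), genes in their order along chromosome 16, siASGR1 in red left of siControl in blue, with a bar at the mean of 3 libraries. The siASGR1 points stand apart above the siControl points for 7 genes and overlap them for MT1A and MT1H.

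MT1E was the next highest in siASGR1. This MT1 gene (chr16:56625475-56627112, plus strand) had 9.50, 8.59 and 9.18 FPKM in siASGR1, against 0.10, 0 and 0.06 FPKM in siControl. In siControl it was thus at the edge of detection, with 3 fragments over the 3 libraries against 540 in siASGR1. The ratio of fragment rates was 167, with a counting interval of 57.0 to 814. Without siControl replicate 1, which held 2 of the 3 fragments, it was 317, from 1 siControl fragment (56.7 to 12540).

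MT1G, which lies on the opposite strand to its neighbours (chr16:56666731-56668065, minus strand), had 7.55, 8.87 and 6.92 FPKM in siASGR1, against 0, 0 and 0.41 FPKM in siControl. Only siControl replicate 3 had any fragments, 5 in all, so without it MT1G is listed at 0 in siControl and was at least 70.2-fold higher in siASGR1. The 329 fragments in siASGR1 gave a ratio of fragment rates of 61.2, with a counting interval of 26.0 to 190, and of 38.6 without siControl replicate 1. MT1E and MT1G overlapped each other in siASGR1, and MT1G was the higher of the pair in replicate 2.

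MT1F and MT1X were the MT1 genes with the clearest level in siControl. MT1F (chr16:56657694-56660698, plus strand) had 4.56, 5.13 and 4.89 FPKM in siASGR1, against 0.74, 0.69 and 1.10 FPKM in siControl. Its means of 4.86 ± 0.29 FPKM in siASGR1 and 0.84 ± 0.22 FPKM in siControl (SD, n = 3 each) were in a ratio of 5.76. MT1X (chr16:56682424-56684196, plus strand) had 2.32, 3.30 and 4.10 FPKM in siASGR1, against 1.02, 1.34 and 1.52 FPKM in siControl. Its groups lay close to each other, with means of 3.24 ± 0.89 FPKM in siASGR1 and 1.29 ± 0.25 FPKM in siControl (SD, n = 3 each) and a ratio of 2.51, the smallest among the genes whose groups did not overlap.

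MT1B and MT1M were listed at 0 in every siControl library. MT1B (chr16:56651899-56653204, plus strand) had 2.11, 2.28 and 2.60 FPKM in siASGR1, from 50 fragments. MT1M (chr16:56632233-56633986, plus strand) had 0.68, 1.21 and 1.6 FPKM in siASGR1, from 62 fragments. Set against the limit that 0 allows, 3 fragments over the siControl group, MT1B was at least 15.5-fold higher and MT1M at least 19.2-fold higher in siASGR1. Without siControl replicate 1 these limits were 9.78-fold for MT1B and 12.1-fold for MT1M, since fewer fragments were then counted. Such limits and intervals cover counting error only.

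MT1A and MT1H did not separate the groups. MT1A (chr16:56638666-56640087, plus strand) had 0.27, 0.82 and 0.66 FPKM in siASGR1, against 0.52, 0.75 and 0.15 FPKM in siControl. That is 13 fragments in siASGR1 and 10 in siControl, a ratio of fragment rates of 1.21 whose counting interval of 0.490 to 3.08 spans equality. MT1H (chr16:56669814-56671129, plus strand) had 0.15, 0 and 0.14 FPKM in siASGR1, from 4 fragments, and 0 in all siControl libraries. At this depth no difference in MT1A or MT1H was detectable.

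In 7 of the 9 genes every siASGR1 library was above every siControl library, a pattern that 11.3% of the 33948 genes with any value above 0 show. Since that contrast chose the genes, nothing is read from this count. The filter on low values, 1 FPKM or more in 3 or more libraries, passed 6 of the 9, MT2A, MT1E, MT1B, MT1F, MT1G and MT1X. Among those 6 only MT2A and MT1X reached 1 FPKM in all siControl libraries, while MT1E, MT1B and MT1G reached it in none and MT1F in 1. By difference of log2(FPKM + 1), MT2A (3.64), MT1E (3.26) and MT1G (2.96) held ranks 1, 2 and 3 among 13568 genes. MT1B (1.73) was at 31, MT1F (1.67) at 41 and MT1X (0.87) at 385. These ranks use the contrast that chose the genes, so nothing is read from them either.

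The order of levels differed between the groups. In siASGR1 it ran MT2A, MT1E, MT1G, MT1F, MT1X, MT1B, MT1M, MT1A, MT1H by mean FPKM. Neighbours in this order overlapped between libraries for MT1E and MT1G, for MT1X and MT1B, and for MT1M and MT1A. In siControl the order was MT2A, MT1X, MT1F, MT1A, MT1G and MT1E, with MT1B, MT1M and MT1H at 0. There MT2A stood apart, while MT1X overlapped MT1F, MT1F overlapped MT1A, MT1A overlapped MT1G, and MT1G overlapped MT1E.

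Summed over the 9 genes, the level was 79.73, 90.77 and 83.06 FPKM in siASGR1, against 6.20, 6.77 and 6.07 FPKM in siControl. The sums were tight within each group, at 84.5 ± 5.66 FPKM in siASGR1 and 6.35 ± 0.37 FPKM in siControl (SD, n = 3 each), and their ratio was 13.3. Leaving out MT2A gave 29.1 ± 1.74 FPKM in siASGR1 and 2.8 ± 0.43 FPKM in siControl, a ratio of 10.4. Adding the other 11 annotated metallothionein genes and pseudogenes gave 86.7 ± 5.30 FPKM in siASGR1 and 10.5 ± 0.95 FPKM in siControl, a ratio of 8.29.

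**Figure D2:**
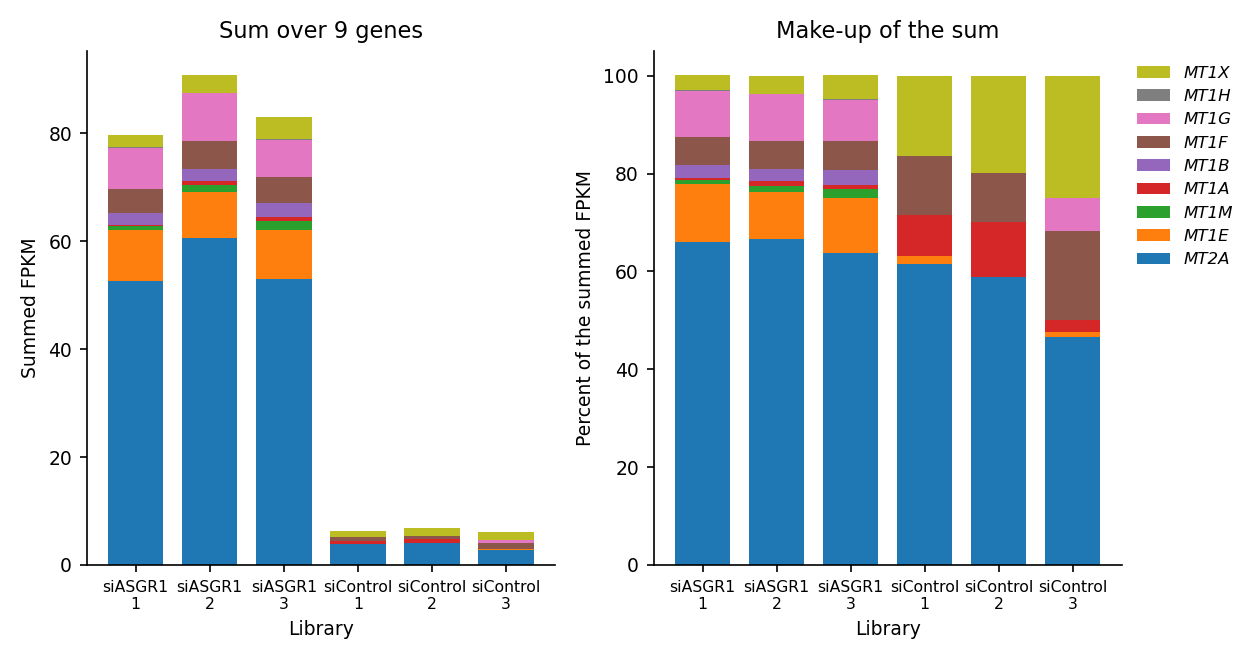
Left, summed FPKM of the 9 metallothioneins in each library, stacked by gene. Right, the same as percent of each library's sum; MT2A makes up 63.8% to 66.7% in siASGR1 and 46.6% to 61.6% in siControl, and MT1X 2.91% to 4.94% in siASGR1 and 16.5% to 25.0% in siControl.

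The make-up of the sum also differed. MT2A gave 65.5 ± 1.53% of the summed FPKM in siASGR1 and 55.7 ± 7.99% in siControl (SD, n = 3 each), and the libraries of the groups did not overlap. MT1E gave 10.8 ± 1.24% in siASGR1 and 0.867 ± 0.813% in siControl, and MT1G 9.19 ± 0.76% in siASGR1 and 2.25 ± 3.90% in siControl. MT1X and MT1F took a smaller share in siASGR1 than in siControl, although both levels were higher there. MT1X gave 3.83 ± 1.03% in siASGR1 and 20.4 ± 4.33% in siControl, and MT1F 5.75 ± 0.12% in siASGR1 and 13.4 ± 4.17% in siControl. These shares depend on the exon lengths behind the FPKM. MT1X has 1773 bases of annotated exon but 450 in its RefSeq-linked transcript, and MT1F 1889 and 690. With transcript lengths MT2A gave 61.0%, MT1X 8.48% and MT1F 8.88% of the sum in siASGR1. The siControl shares were not recomputed with these lengths. They also rest on few fragments, 164, 154 and 145 over the 9 genes in the 3 siControl libraries.

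Spread between the siASGR1 libraries was set beside the spread that counting gives. For MT2A the coefficient of variation was 8.13%, against 2.72% from counting, and for MT1X 27.5%, against 9.61%. Those were the genes with the widest margin. For MT1E (5.08% against 7.45%), MT1F (5.89% against 7.61%) and MT1B (10.7% against 24.5%) the libraries varied less than counting gives. MT1G (12.8% against 9.55%) and MT1M (39.7% against 22.0%) varied somewhat more, and MT1A and MT1H were at the counting level.

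**Figure D3:**
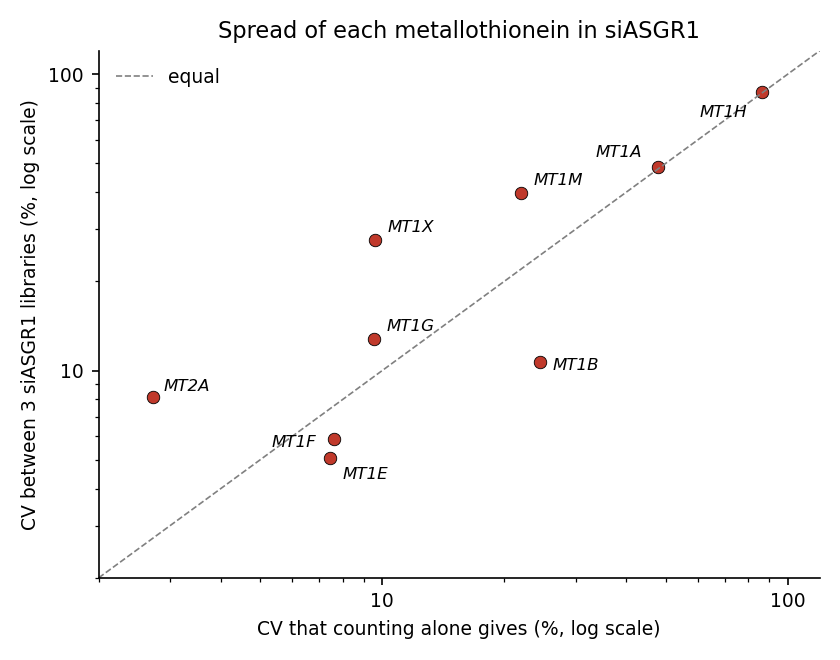
Coefficient of variation of FPKM between the 3 siASGR1 libraries (vertical axis, percent, log scale) against that given by counting fragments (horizontal axis, percent, log scale), 1 point per metallothionein. MT2A and MT1X lie farthest above the dashed line of equality, at 8.13% and 27.5%.

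Of the other 11 metallothionein entries only MT1XP1 passed the filter. MT3, MT4, MT1CP, MT1DP and MT1HL1 were at 0 in all 6 libraries. The pseudogenes MT1L, MT1JP, MT2P1, MT1P1 and MT1P3 had at most 4 fragments in any library. MT1XP1, a processed pseudogene of MT1X on chromosome 1, had 0.86, 0.87 and 1.12 FPKM in siASGR1, against 3.62, 3.84 and 2.31 FPKM in siControl. It was lower in every siASGR1 library, opposite to MT1X. Its counts were small, 10 fragments in siASGR1 and 32 in siControl, with a ratio of fragment rates of 0.291 and a counting interval of 0.127 to 0.606. Whether fragments of MT1X and of its pseudogene were kept apart was not tested.

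None of the tested genes on either side of the cluster was higher by more than 0.19 on the log2(FPKM + 1) scale, or by more than 0.33 with median-of-ratios scaling. Of the 10 nearest protein-coding genes, 5 on each side, 6 passed the filter, and 1 was higher and 4 were lower in siASGR1 at a limma adjusted p under 0.05. Over all 13568 genes 20.9% were higher and 40.4% lower. BBS2, a ciliary gene 87916 bases from MT2A, fell to 1.33 ± 0.04 FPKM in siASGR1, against 2.91 ± 0.15 FPKM in siControl (SD, n = 3 each; log2 fold change -0.75, SE 0.07, limma adjusted p = 0.000114). On the other side HERPUD1, a gene of the unfolded protein response, fell to 22.3 ± 0.34 FPKM in siASGR1, against 37.8 ± 0.34 FPKM in siControl (log2 fold change -0.73, limma adjusted p = 6.98e-06). The changes of the 3 other called neighbours were small. OGFOD1 rose by 0.19 on the log2(FPKM + 1) scale (limma adjusted p = 0.0289), NUDT21 fell by 0.26 (limma adjusted p = 0.0139) and NUP93, 45909 bases beyond MT1X, fell by 0.11 (limma adjusted p = 0.0484). With median-of-ratios scaling 2 were higher and 2 lower, against 4056 and 3921 of all 13568 genes. NUDT21 was then no longer called (limma adjusted p = 0.175) and the NUP93 difference was 0.03 (limma adjusted p = 0.59). The call of OGFOD1 was lost without any 1 library other than siControl replicate 3, and that of NUP93 without siASGR1 replicate 1 or 3 or siControl replicate 1 or 2. GNAO1 (0.017 FPKM in siASGR1 and 0.37 FPKM in siControl), SLC12A3, CETP and NLRC5 were too low to be tested.

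**Figure D4:**
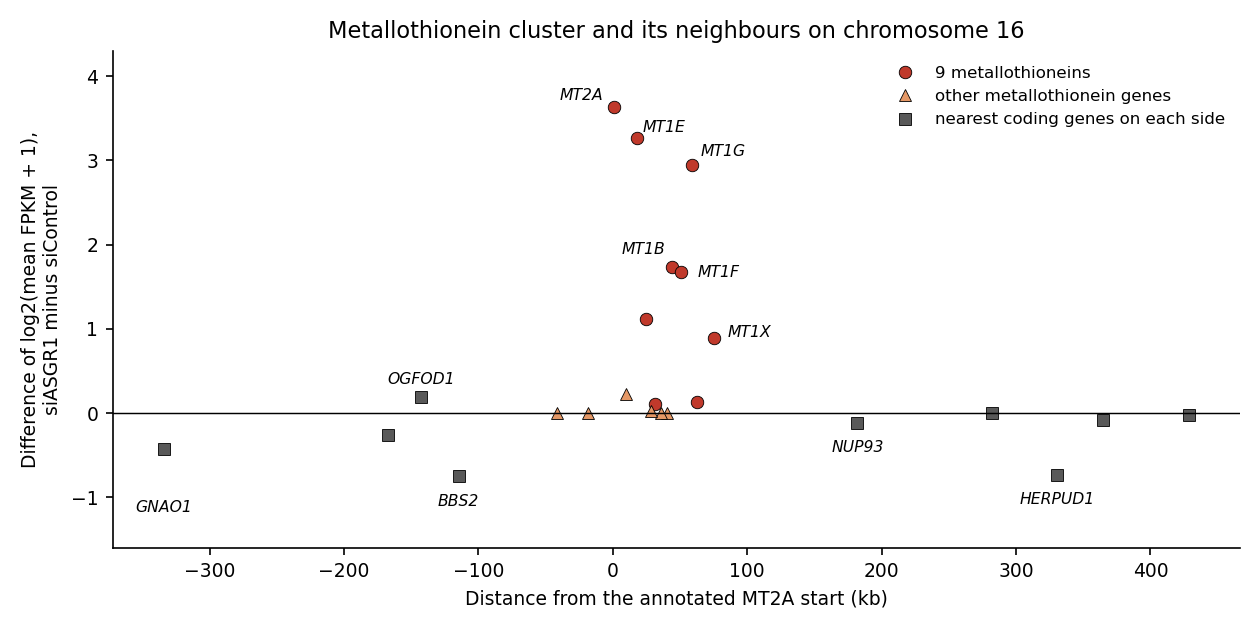
Difference of log2(mean FPKM + 1), siASGR1 minus siControl, against the distance from the annotated start of MT2A in kb. Circles are the 9 metallothioneins (MT1M, MT1A and MT1H unlabelled), triangles the other metallothionein genes of the cluster and squares 9 of the 10 nearest protein-coding genes, 5 on the MT1X side and the rest on the MT2A side, which lie between -0.75 (BBS2) and 0.19 (OGFOD1).

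MTF1 and its other targets went both ways. That list had 9 tested genes, some of which are known as targets only in mouse. In siASGR1, 2 were higher and 5 lower (20.9% and 40.4% of all genes tested). With median-of-ratios scaling 3 were higher and 4 lower, against 4056 and 3921 of all 13568 genes. The median log2 fold change was -0.19, against -0.13 over all 13568 genes. MTF1 itself had 4.76, 4.36 and 4.32 FPKM in siASGR1, against 5.31, 5.49 and 4.92 FPKM in siControl. The groups did not overlap, but the difference was small (log2 fold change -0.19, SE 0.06, limma adjusted p = 0.033) and was not called with median-of-ratios scaling (limma adjusted p = 0.432), or without siASGR1 replicate 2 or 3 or siControl replicate 1 or 2.

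SLC30A1, the zinc exporter of the plasma membrane, had 8.14, 7.53 and 7.96 FPKM in siASGR1, against 10.17, 9.87 and 10.75 FPKM in siControl. It fell in siASGR1 (log2 fold change -0.34, SE 0.05, limma adjusted p = 0.00103), and was called lower under each scaling tried. Its promoter window held 1 core match, at position -49, and that of MTF1 held 0. The placental growth factor gene PGF fell to 7.19 ± 0.67 FPKM in siASGR1, against 14.9 ± 0.50 FPKM in siControl (SD, n = 3 each; limma adjusted p = 3.27e-05). SLC40A1, the iron exporter ferroportin, and GCLC, which catalyses the first step of glutathione synthesis, were 1.45-fold and 1.69-fold lower. SELENOH, a selenoprotein gene, rose to 82.3 ± 8.25 FPKM in siASGR1, against 59.4 ± 1.51 FPKM in siControl (limma adjusted p = 0.00102). SLC30A10, a manganese exporter named after its values were seen, rose 1.45-fold (limma adjusted p = 0.00189). SLC39A10, a zinc importer that MTF1 represses in mouse, was 9.30 ± 0.68 FPKM in siASGR1 and 8.04 ± 0.59 FPKM in siControl (limma adjusted p = 0.0522), and was called higher with median-of-ratios scaling (limma adjusted p = 0.00492). CEBPA was 9.67 ± 1.46 FPKM in siASGR1 and 9.50 ± 1.83 FPKM in siControl (limma adjusted p = 0.873). HAMP was too low to be tested.

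Zinc transporters went both ways. Most SLC30A proteins move zinc out of the cytosol and most SLC39A proteins move it in, but not every member does so. Of 24 genes 16 were tested. In siASGR1, 6 of them were higher and 8 lower, against 20.9% and 40.4% of all genes tested, with a median of -0.09. With median-of-ratios scaling 8 were higher and 6 lower. The balance over all 13568 genes also turned with that scaling, to 4056 higher and 3921 lower. SLC39A5, a zinc importer, rose to 12.1 ± 0.46 FPKM in siASGR1, against 7.43 ± 0.42 FPKM in siControl (SD, n = 3 each; limma adjusted p = 7.65e-05), and SLC30A9 rose 1.38-fold. SLC30A5, which loads zinc into the secretory pathway, was 1.64-fold lower, and SLC39A9 and SLC39A11 were 1.44-fold and 1.79-fold lower in siASGR1.

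Copper handling genes also went both ways. Of 11 tested genes 6 were higher and 2 lower in siASGR1, against 20.9% and 40.4% of all genes tested, with a median of 0.20. With median-of-ratios scaling 6 were higher and 1 lower, against 4056 and 3921 of all 13568 genes. SOD1, the copper and zinc superoxide dismutase, rose to 85.4 ± 3.26 FPKM in siASGR1, against 48.5 ± 4.43 FPKM in siControl (SD, n = 3 each; limma adjusted p = 6.86e-05). CP, which encodes the plasma copper protein ceruloplasmin, rose 1.9-fold, and COX11 and SCO1, which deliver copper to cytochrome oxidase, rose 1.26-fold and 1.2-fold. SLC31A1, the copper importer, fell to 19.1 ± 0.18 FPKM in siASGR1, against 35.2 ± 0.86 FPKM in siControl (limma adjusted p = 5.19e-06).

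Among genes that respond to metals and oxidants, 10 of 14 tested were lower and 4 higher in siASGR1, against 40.4% and 20.9% of all genes tested, with a median of -0.54. With median-of-ratios scaling 8 were lower and 4 higher, against 3921 and 4056 of all 13568 genes. HMOX1, heme oxygenase, a gene that cadmium also induces, was named after its values were seen. It fell to 21.5 ± 1.78 FPKM in siASGR1, against 43.7 ± 2.4 FPKM in siControl (SD, n = 3 each; 2.04-fold lower, limma adjusted p = 2.74e-05). The cystine transporter gene SLC7A11 was 3.82-fold lower, OSGIN1 3.02-fold lower, the glutathione synthesis gene GCLM 2.24-fold lower and the sulfiredoxin gene SRXN1 2.21-fold lower. NQO1, a quinone reductase, went the other way and rose 2.31-fold, to 173.6 ± 4.77 FPKM in siASGR1, against 75.03 ± 2.33 FPKM in siControl (SD, n = 3 each; limma adjusted p = 2.43e-06).

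The lists of the other known inducers each held genes that rose and genes that fell. Of 14 tested genes of the glucocorticoid receptor and its targets, 6 were higher and 7 lower in siASGR1, against 20.9% and 40.4% of all genes tested, with a median of -0.14, against -0.13 over all genes. DUSP1, a phosphatase gene, had 4.5, 5.47 and 4.5 FPKM in siASGR1, against 23.70, 24.82 and 23.75 FPKM in siControl (log2 fold change -2.11, SE 0.07, limma adjusted p = 2.63e-06). TSC22D3, which encodes the glucocorticoid-induced leucine zipper, and KLF9 were 3.24-fold and 2.06-fold lower. CEBPD, a transcription factor gene shared with the next list, rose 5.25-fold and IGFBP1 6.51-fold. NR3C1, the receptor itself, was 3.01 ± 0.32 FPKM in siASGR1 and 3.51 ± 0.49 FPKM in siControl (limma adjusted p = 0.19).

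Of 16 tested genes of the interleukin 6 and STAT3 acute phase list, 9 were higher and 4 lower in siASGR1, against 20.9% and 40.4% of all genes tested, with a median of 0.32. The fibrinogen chain gene FGB rose to 139.5 ± 0.29 FPKM in siASGR1, against 26.2 ± 1.39 FPKM in siControl (SD, n = 3 each; limma adjusted p = 1.12e-06), and FGA and FGG rose 2.92-fold and 2.37-fold. HP, haptoglobin, was 2.39 ± 0.32 FPKM in siASGR1 and 0.23 ± 0.01 FPKM in siControl (limma adjusted p = 3.33e-05). STAT3 itself fell to 9.67 ± 0.22 FPKM in siASGR1, against 13.6 ± 0.27 FPKM in siControl (limma adjusted p = 0.000108), and SAA1 was 4.29-fold lower. Both were named after their values were seen.

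**Figure D5:**
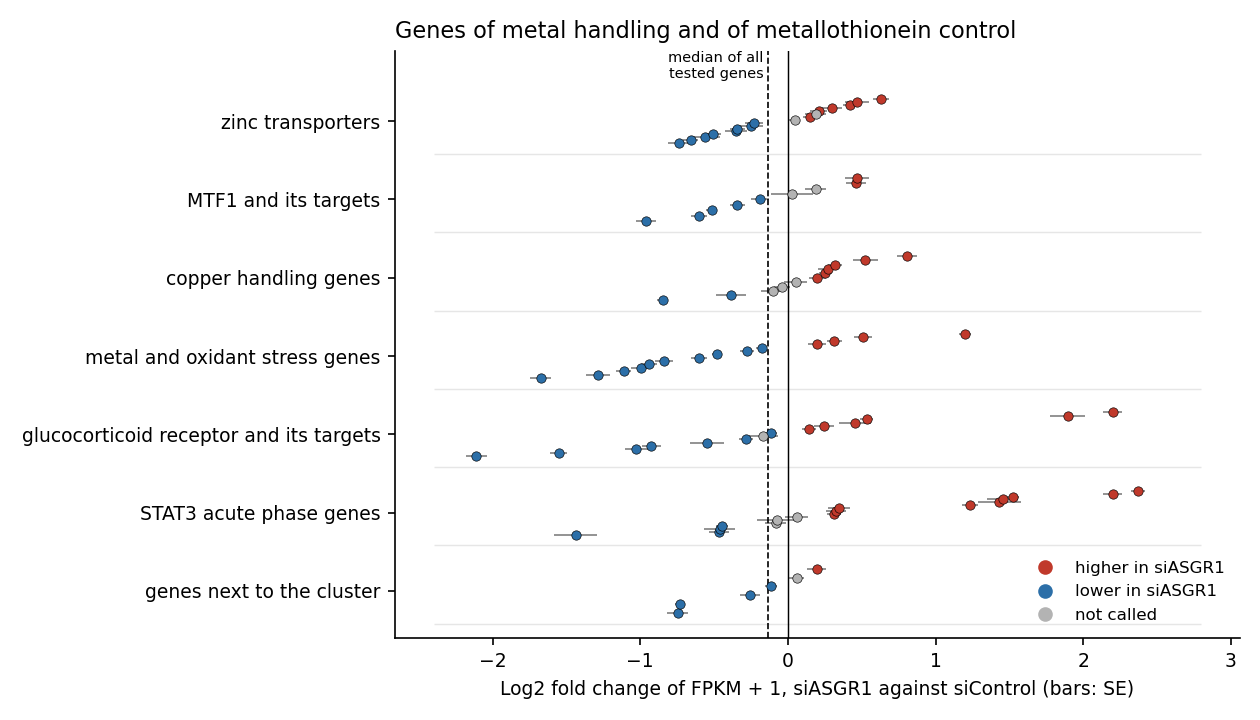
Log2 fold change of FPKM + 1, siASGR1 against siControl, of every tested gene of 7 lists (points, with bars for the SE), red where called higher, blue where called lower and grey where not called. The dashed line is the median of all tested genes, -0.13; genes of each list lie on both sides of it.

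The genes whose profile lay closest to the summed metallothionein level were APOB, H2BC12, NPPB, FGB and ARG1. Closeness was the root-mean-square distance of centred log2(FPKM + 1) over the 6 libraries, which was 0.381 for APOB and 0.535 to 0.591 for the other 4. Since that sum separates the groups, closeness to it selects genes that also do. APOB, the structural protein of very low density lipoprotein, had 542.4 ± 60.9 FPKM in siASGR1 and 74.3 ± 2.04 FPKM in siControl (SD, n = 3 each). ARG1, the arginase of the urea cycle, had 13.9 ± 0.48 FPKM in siASGR1 and 1.87 ± 0.18 FPKM in siControl.

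Markers of other cell types and of RNA quality were read beside these values. Mitochondrial transcripts took 5.84% to 5.92% of fragments in siASGR1 and 6.34% to 6.56% in siControl. Of 8 fibroblast markers 3 were tested. PDGFRA rose 2.44-fold, and COL1A1 and COL1A2, near 0 at 0.027 and 0.020 FPKM in siASGR1, were 2.46 and 1.51 FPKM in siControl. COL3A1 (0.12 FPKM in siASGR1 and 0.71 FPKM in siControl), DCN (0.010 FPKM in siASGR1 and 0.23 FPKM in siControl) and LUM (0.39 FPKM in siASGR1 and 0.94 FPKM in siControl) were below the filter and also lower in every siASGR1 library. The summed level of the 8 was 11.0 to 12.3 FPKM in siASGR1, nearly all PDGFRA, and 10.1 to 11.1 FPKM in siControl. The leukocyte sum, 115.9 to 119.5 FPKM in siASGR1 and 69.6 to 76.3 FPKM in siControl, was nearly all LYZ. The 4 endothelial markers found summed to at most 0.21 FPKM in siASGR1 and 0.14 FPKM in siControl, with KDR and TEK at 0. The part of these differences in the metallothionein levels was not tested.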

How the data were processed

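RNA from 6 Huh7 libraries, 3 siASGR1 and 3 siControl, was sequenced by the authors. The submitters' processing notes name HISAT2 (version 2.0.1), cutadapt (version 1.9.1), bcl2fastq (version 2.17.1.14) and the build hg19. Counter, strand setting and annotation: not given in the sources used here. Per the file headers, the deposited values are FPKM, with 2 decimals in 1 table of the whole series and 1 file per library; the table was used.

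Depth was recovered from the steps between low FPKM, with GENCODE v29 exon lengths. Of the values examined, 96.905% to 97.336% were whole within 0.12 reads, against 24% by chance. Fragment counts were rebuilt from it. No pair of libraries agreed within sampling noise. Coordinates come from GENCODE v29 and RefSeq, both on GRCh38.

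The 13568 genes that reached 1 FPKM in 3 or more libraries were fitted with limma 3.58.1 in R 4.3.3 on log2(FPKM + 1), group as the only term, trended prior, two-sided, with Benjamini-Hochberg adjustment over all of them and calls at 0.05. The scale understates changes of low genes. The fit was tested on simulated data. Fold changes without "log2" are ratios of mean FPKM. The added alternatives on shares and on the sum without MT2A were chosen after seeing the data. Plots used Python 3.11.15 and matplotlib 3.10.9.

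The members, the gene lists and the tests were chosen with earlier results of these data known. Genes named were the 9 members, all other metallothioneins, ASGR1, MTF1, SLC30A1, up to 5 called genes of each list with the smallest p, the neighbours of the cluster, and the 5 profiles closest to the sum. Those said to be named after their values were seen, and also SLC39A10, CEBPA, HAMP, NR3C1 and the markers of other cell types, lie outside this rule. A gene next to the cluster is not reported here.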

Additional observations from a re-analysis of the deposited data

How the results depend on the processing

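Of 1078 alternative values over 69 results, 1027 were classed as the same. For a single gene this meant the same direction and side of the threshold, and for a level, ratio or share a value within the replicate spread. For a count it meant only staying within a fixed fold of the main count. The shift between higher and lower calls given below was therefore also classed as the same. So was ASGR1, at a log2 fold change of -1.68 in the whole-series table and -0.21 in the files per library. Part of the 1027 could hardly differ, since the deposited tables differ only in ASGR1 and rescaling a library cannot change the MT2A share. The summed ratio of 13.3 was 14.8 with median-of-ratios scaling, 11.8 with FPKM times exon length, 8.29 over every annotated metallothionein and 10.4 without MT2A. The MT2A share of 65.5% was 68.8% by reads without length and 61.0% with RefSeq-linked lengths. Leaving out 1 library at a time gave a summed ratio of 12.8 to 13.8, an MT2A ratio of 14.2 to 16.7 and an MT2A share of 64.9% to 66.3%. Of the genes next to the cluster, 5 were called, but 3 with upper-quartile scaling, 3 with FPKM of at least 5, and 3 to 5 leaving out 1 library. That filter, which tests fewer genes, left 3382 genes called lower, against 5480. NUP93 turned to 0.030 with median-of-ratios scaling and NR3C1 to 0.012 with quantile normalization, neither called. CEBPA ran from -0.10 to 0.15 leaving out 1 library. MTF1 was not called under 8 alternatives, among them without siASGR1 replicate 2 (limma adjusted p = 0.0834) or 3 (0.102) and without siControl replicate 1 (0.0889) or 2 (0.104). OGFOD1 lost its call without each of 5 libraries and with no filter. The causes were not tested.

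The split of calls, 2839 higher and 5480 lower, was 4056 and 3921 with median-of-ratios scaling, 3399 and 4689 with upper-quartile scaling and 3890 and 4015 with quantile normalization. The first moved the median log2 fold change of all genes from -0.13 to -0.01. Deviations from the group means correlated at -0.02, 0.002 and 0.01 between same-numbered libraries, so no shared deviation by replicate number was seen. The labels do not say whether the numbers pair the samples, and these correlations cannot tell. With the replicate block 2761 genes were called higher and 5303 lower, and 7811 of the 8319 calls were shared. Fragments limit MT1A and MT1H, with at most 13 in a group.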
